A study of Saccharomyces cerevisiae with 30 samples.

Results

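The genes described here encode the enzymes that turn pyruvate into ethanol in baker's yeast: the pyruvate decarboxylases PDC1 (YLR044C), PDC5 (YLR134W) and PDC6 (YGR087C), and the alcohol dehydrogenases ADH1 (YOL086C), ADH3 (YMR083W) and ADH5 (YBR145W). They were taken by name through the platform's probe annotation, and each was represented by 1 probe set. They are 6 of the 5449 genes that the annotated probe sets cover, and all 6 lay above background on 30 of 30 arrays. Levels were measured on an Affymetrix array in cultures of Saccharomyces cerevisiae strain S288C, a laboratory strain, grown in synthetic medium with 2% dextrose at 30 °C. In the short exposure, treatment began at an optical density (OD600) of 0.2 and cells were harvested at 0.5, after about 4 h. The long exposure ran for 4.5 doublings, about 15 h.

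Each of the 10 groups held 3 biological replicate cultures, A, B and C, with 1 array per culture. Eupolauridine-9591 (E9591) was given at 0.053 µM for 4 h and for 15 h. Liriodenine methiodide (LMT) was given at 2.6 µM for 4 h and for 15 h. Metal chelators served as references for the response to iron deficiency, both for 4 h: 2,2'-bipyridyl (BIPR) at a dose of 65.9 µM, and 1,10-phenanthroline (PHEN) at a dose of 6.2 µM. Each dose was the IC50 of its compound, so the doses differ between compounds. Control cultures received 0.25% DMSO. E9591 and LMT each had their own DMSO cultures at 4 h. BIPR and PHEN shared 1 set of DMSO cultures, and the 15 h treatments shared another, so the comparisons within either pair are not independent of each other.

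Pyruvate decarboxylase removes carbon dioxide from pyruvate, with thiamine pyrophosphate as its cofactor, and leaves acetaldehyde. Alcohol dehydrogenases, which are zinc enzymes, reduce acetaldehyde to ethanol and so regenerate the NAD+ that glycolysis consumes. Yeast that ferments glucose relies mainly on Pdc1 and Adh1, while the other isoenzymes are known for their responses to thiamine, sulfur supply or carbon source.

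Values are the deposited intensities, a linear scale on which probe sets of different genes cannot be set against each other. Changes are log2 differences between group means ± standard error (SE) with n = 3 arrays per group, fitted with limma over all 30 arrays. A change was called at a Benjamini-Hochberg adjusted p under 0.05 over 5429 tested genes. The background, the 95th percentile of probe sets for another yeast species, lay between 11.2 and 34.5 on each array, and the lowest member value was 11.2 times its array's background (PDC6). Replicate C of the chelators' DMSO cultures stood apart, with intensities of 33265 for PDC1, 30276 for ADH1 and 19081 for ADH3, the highest of the 30 arrays for each of these genes. The fit shares 1 spread per gene over all groups, so this array widens the SE of these genes in every comparison. For PDC1 the SD of log2 values was 0.647 in that group. It was 0.026 with DMSO and 0.093 with E9591 in the E9591 experiment at 4 h. The 15 h DMSO cultures differed widely from the 4 h ones. ADH2, the glucose-repressed alcohol dehydrogenase that oxidises ethanol, lay between 8712 and 11517 on their arrays and between 146 and 239 on the 4 h DMSO arrays. STE3, the receptor gene that marks alpha cells such as S288C, lay between 287 and 388 there and between 6403 and 7543 at 4 h. The part of growth stage in the 15 h comparisons was not tested.

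PDC6 was called in all 6 comparisons with DMSO and PDC5 in 5 of them. PDC5 rose 34.5-fold with E9591 at 15 h and PDC6 rose 7.1-fold with BIPR and 7.81-fold with PHEN, while PDC1 and ADH1 were not called in any of the 6 comparisons. With E9591 at 4 h, 1 of 6 genes was called, and it rose, where 43.3% of all genes were called, 32.0% higher and 11.3% lower. With LMT at 4 h 3 genes rose and 1 fell, where 65.5% of all genes were called, 40.4% higher and 25.2% lower. BIPR and PHEN each gave 1 rise and 1 fall. The shares of all genes were 46.2% with BIPR, 27.7% higher and 18.5% lower, and 48.9% with PHEN, 29.2% higher and 19.7% lower. At 15 h, E9591 gave 2 rises and 1 fall, where 87.9% of all genes were called, 45.7% higher and 42.2% lower. LMT at 15 h gave 1 rise and 1 fall, where 83.8% were called, 41.9% higher and 41.9% lower. The 3 of 6 and 2 of 6 genes called at 15 h are smaller shares than those of all genes, a difference that was not tested. The 1 of 6 with E9591 and 2 of 6 with each chelator at 4 h are smaller shares too. The 15 h counts depend on the processing: under quantile normalization they were 6 of 6 with E9591 and 4 of 6 with LMT. Over the 6 treatments, 14 of 36 changes were called, 9 higher and 5 lower, and 11 of them were called under every alternative tried.

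**Figure D1:**
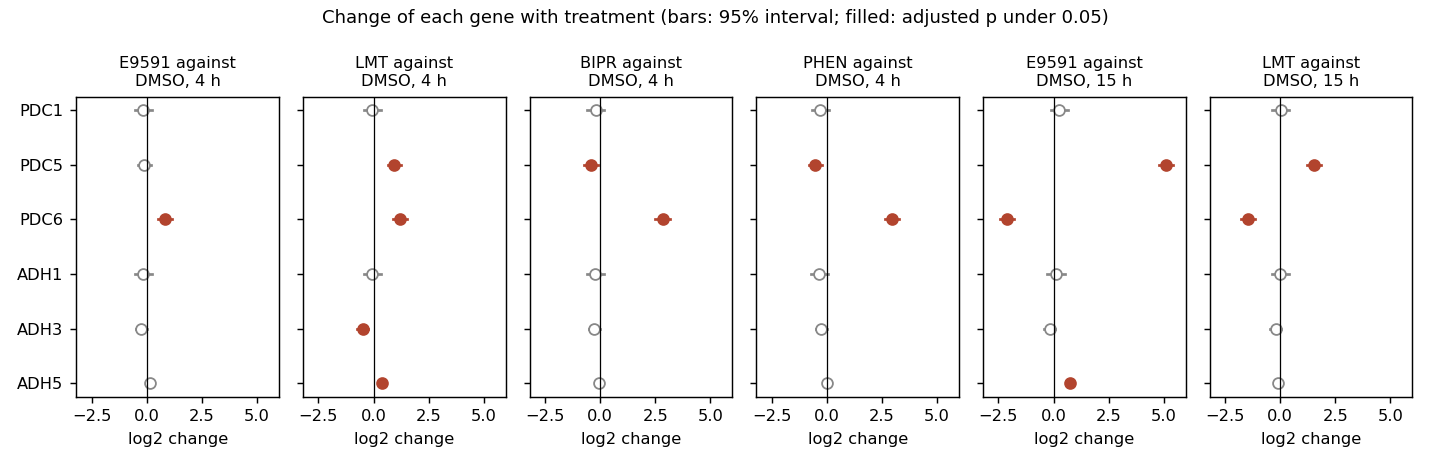
Log2 change of each gene against the DMSO cultures of the same experiment, with 95% intervals from the fit over 30 arrays; filled points had an adjusted p under 0.05. PDC5 and PDC6 lie farthest from 0, with PDC5 at 5.11 for E9591 at 15 h and PDC6 near 2.9 for both chelators, and PDC1 and ADH1 have open points in each panel.

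PDC1, the major pyruvate decarboxylase, had a narrow range of group means. The highest and the lowest of its 10 group means differed 1.41-fold, and none of the 9 pairs of neighbours in the order of groups was free of overlap. Groups farther apart in that order could be separate. The DMSO arrays of the E9591 experiment (19956 to 20684) lay above those of the LMT experiment (14473 to 16259). Such counts of neighbours are a description, given with no share over other genes. At 15 h PDC1 had 16882, 15035 and 19935 with E9591, 14607, 12901 and 16246 with LMT, and 15091, 12357 and 15914 with DMSO. The E9591 arrays overlapped the DMSO arrays (0.26 ± 0.18, adjusted p = 0.192), and so did the LMT arrays (0.01 ± 0.18, 95% interval -0.36 to 0.40). E9591 lay above DMSO within each replicate letter. A fit with the replicate as a block did not call the E9591 difference (limma, adjusted p = 0.181). Under quantile normalization both 15 h differences were called, at 0.39 with E9591 and 0.23 with LMT, and the E9591 difference was also called with array weights (0.24).

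At 4 h PDC1 had 19639, 17557 and 17562 with E9591, all below the 20252, 19956 and 20684 of its DMSO cultures, but the fitted difference was not called (-0.16 ± 0.18, adjusted p = 0.515). With the chelators the sign of the PDC1 difference depended on DMSO replicate C. It was -0.20 with BIPR and -0.30 with PHEN over all arrays, and 0.18 and 0.07 without that array. Without DMSO replicate A instead, the PHEN difference was -0.52 and was called.

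PDC5, a second structural gene for pyruvate decarboxylase whose message is known to rise when Pdc1 is missing or thiamine is scarce, had its highest level by far in cultures kept with E9591 for 15 h. It read 16985, 14844 and 18038 with E9591 and 1512, 1428 and 1258 with LMT, against 586, 401 and 469 in the 15 h DMSO cultures. The groups did not overlap, and the E9591 arrays lay above every other array of the series. The rise with E9591 was 5.11 ± 0.15 (adjusted p = 2.09e-20), the 16th highest among the 5429 genes. The rise with LMT was 1.54 ± 0.15, or 2.91-fold (adjusted p = 6.36e-10). LMT cultures held 11.9-fold less PDC5 signal than E9591 cultures at 15 h (-3.57 ± 0.15, adjusted p = 1.55e-16), and this was the 5th lowest value of that comparison, in which 78.1% of genes were called, 39.5% higher and 38.6% lower.

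At 4 h the same compounds gave another picture for PDC5. With E9591 it had 1157, 1123 and 1313, against 1075, 1344 and 1490 with DMSO, and the arrays overlapped (-0.11 ± 0.15, adjusted p = 0.556, 95% interval -0.41 to 0.19). With LMT it had 1455, 1608 and 1194, against 702, 620.4 and 906 with DMSO, a rise of 0.94 ± 0.15 or 1.92-fold (adjusted p = 4.94e-06). The DMSO cultures of the LMT experiment were themselves lower than those of the E9591 experiment (1075 to 1490) and of the chelators (1007 to 1086). The LMT arrays overlapped the DMSO arrays of the E9591 experiment, and the part of that difference between experiments in the LMT rise was not tested.

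Both chelators lowered PDC5. It had 799, 681 and 859.8 with BIPR and 759, 688 and 724 with PHEN, against 1013, 1086 and 1007 with DMSO, with no overlap. For BIPR the change was -0.41 ± 0.15 at an adjusted p of 0.0229. For PHEN it was -0.52 ± 0.15 at an adjusted p of 0.00523. Neither call held when arrays were weighted by their noise (-0.39, adjusted p = 0.111, and -0.47, adjusted p = 0.0589). The BIPR call was also lost without BIPR replicate B (-0.32) or DMSO replicate B (-0.38).

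PDC6, the minor decarboxylase gene, is barely used on glucose and is known to respond to sulfur limitation. It rose with every compound at 4 h. With BIPR it had 2087, 2248 and 2246 and with PHEN 2251, 2594 and 2407, against 258, 409 and 277 in their DMSO cultures. The rises were 2.83 ± 0.16 (adjusted p = 4.2e-13) and 2.97 ± 0.16 (adjusted p = 1.79e-13), the 20th and the 18th highest of all genes in the 2 comparisons.

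The rise of PDC6 was smaller with E9591 and LMT. E9591 cultures had 858, 979 and 1028, against 423, 612 and 600.4 with DMSO (0.82 ± 0.16, 1.77-fold, adjusted p = 0.000211). LMT cultures had 841, 1006 and 699, against 315, 364 and 428 with DMSO (1.20 ± 0.16, 2.29-fold, adjusted p = 5.97e-07). Neither comparison overlapped, and the LMT and E9591 arrays lay above every DMSO array of the 4 h experiments.

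At 15 h PDC6 was lower with both compounds than with DMSO. It had 1975, 2008 and 1657 with E9591 and 2703, 3260.4 and 2882 with LMT, against 8332, 7341 and 8583 with DMSO. The falls were -2.11 ± 0.16 with E9591 (4.3-fold lower, adjusted p = 6.7e-12) and -1.46 ± 0.16 with LMT (2.74-fold lower, adjusted p = 8.72e-09). The DMSO level was the highest of the 10 groups. The 15 h DMSO cultures had 20.5-fold more PDC6 signal than the mean of the 4 h DMSO groups (4.36 ± 0.13, adjusted p = 2.62e-20), and time and experiment cannot be told apart there. On the intensity scale both treated 15 h groups lay above every 4 h DMSO array, a difference between experiments that was not tested.

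**Figure D2:**
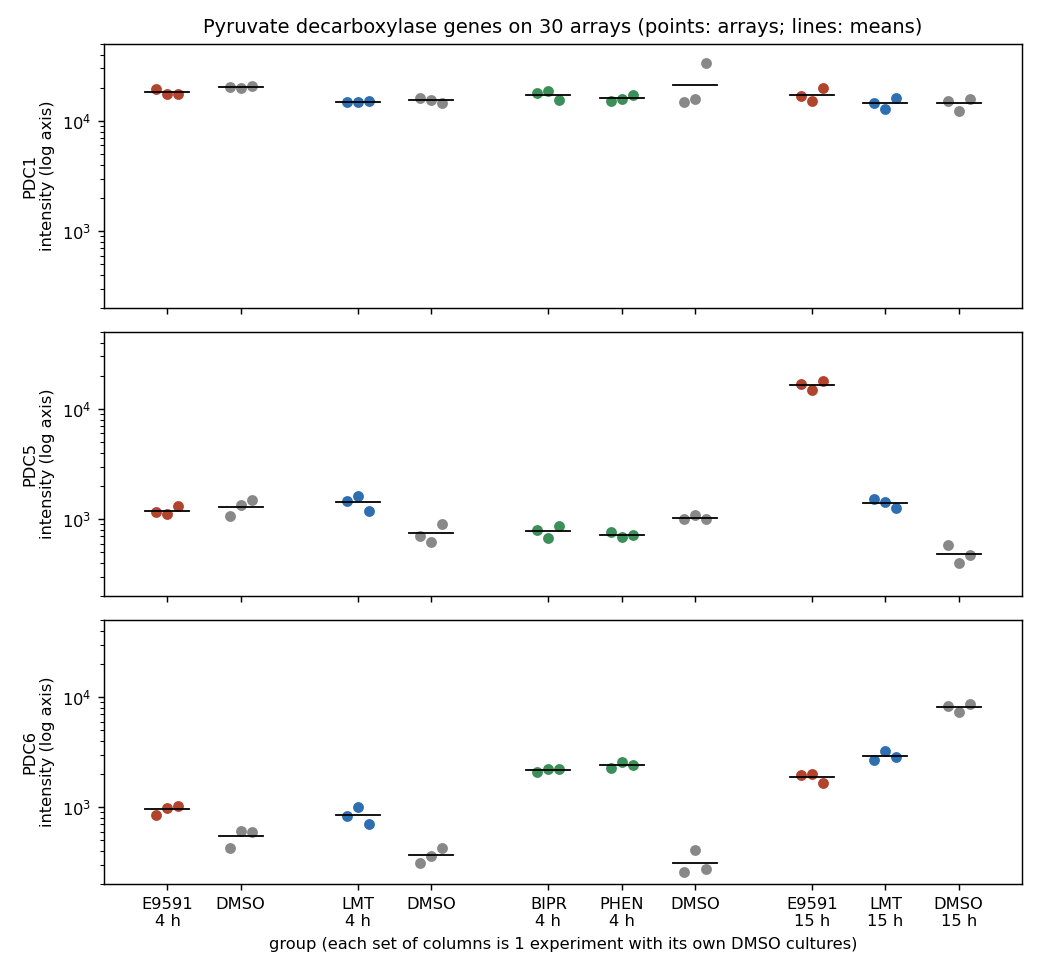
Intensity on a log axis of the pyruvate decarboxylase genes on the 30 arrays, by group; points are arrays, lines are group means, and each set of columns is 1 experiment with its own DMSO cultures. PDC1 has a narrow range of group means, PDC5 is highest with E9591 at 15 h (14844 to 18038), and PDC6 is highest in the 15 h DMSO cultures (7341 to 8583) and raised with both chelators at 4 h.

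Across the 10 groups the levels of PDC5 ran in the order E9591 at 15 h, LMT at 4 h, LMT at 15 h, the E9591 experiment's DMSO, E9591 at 4 h, the chelators' DMSO, BIPR, the LMT experiment's DMSO, PHEN and the 15 h DMSO. Of its 9 neighbouring pairs, 4 were free of overlap, the first of them the drop after E9591 at 15 h. For PDC6 the order began with the 15 h DMSO, LMT at 15 h, PHEN, BIPR and E9591 at 15 h, each above the next without overlap. E9591 and LMT at 4 h came next and overlapped each other. The 4 h DMSO groups were lowest. Neighbours in that order overlapped, and the E9591 experiment's DMSO lay above the chelators' DMSO without overlap. The highest and lowest group means differed 34.5-fold for PDC5 and 26.1-fold for PDC6.

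ADH1 encodes the main fermentative alcohol dehydrogenase, and its group means differed 1.5-fold at most, against 1.41-fold for PDC1. Of its 9 neighbouring pairs, 1 was free of overlap. With E9591 it had 18447, 16323 and 16341 at 4 h, all below the 18854, 19049 and 19226 of the DMSO cultures (-0.16 ± 0.19, adjusted p = 0.51). At 15 h it had 14992, 12738 and 16880.2 with E9591 and 14199, 12049 and 15219 with LMT, against 15612, 12150.4 and 13566 with DMSO, all overlapping. The 15 h differences were 0.11 ± 0.19 with E9591 (95% interval -0.29 to 0.50) and 0.01 ± 0.19 with LMT (-0.39 to 0.40). Under quantile normalization both were called, at 0.17 with E9591 (adjusted p = 0.0173) and 0.18 with LMT (adjusted p = 0.013). With the chelators its values of -0.22 and -0.34 became 0.17 and 0.05 without DMSO replicate C, and without replicate A the PHEN value was -0.57 and was called.

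ADH3, the mitochondrial alcohol dehydrogenase, fell in 1 of the 6 comparisons. With LMT at 4 h it had 8205, 7548 and 8648, below the 11704, 11646 and 10829.8 of its DMSO cultures (-0.49 ± 0.12, 1.4-fold lower, adjusted p = 0.00146). With E9591 at 4 h it had 12166, 11419 and 11438, against 13614, 13529 and 14385 with DMSO. Those arrays did not overlap either, but the difference of -0.25 ± 0.12 was not called (adjusted p = 0.115). It was called under median centring (-0.40) and in a fit on that experiment alone (-0.25, adjusted p = 0.00739). At 15 h ADH3 ranged from 8307 to 9261 with E9591 and from 8313 to 9657 with LMT, against 8807 to 11129 with DMSO, and neither difference was called (-0.17 and -0.20). The E9591 one was called under quantile normalization (-0.13, adjusted p = 0.0333), and the LMT one with array weights (-0.22, adjusted p = 0.0117) and without 15 h DMSO replicate B (-0.30, adjusted p = 0.0474). With the chelators the ADH3 differences of -0.26 (BIPR) and -0.25 (PHEN) were not called. They were called without DMSO replicate A (-0.42 and -0.41), the BIPR one also without replicate B (-0.34), and were -0.03 and -0.01 without replicate C.

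ADH5, a minor cytosolic isoenzyme, was highest in the 15 h E9591 cultures, as PDC5 was. It had 11434, 10058 and 12976 with E9591 and 6299, 5897 and 6671 with LMT, against 6899, 6285 and 7075 with DMSO. The rise with E9591 was 0.76 ± 0.08, or 1.69-fold (adjusted p = 2.56e-09), and the LMT arrays overlapped the DMSO arrays (-0.10 ± 0.08, adjusted p = 0.227). LMT cultures had 1.82-fold less ADH5 signal than E9591 cultures (-0.86 ± 0.08, adjusted p = 4.68e-10).

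At 4 h ADH5 had 9293, 8414 and 9236 with LMT, against 6907, 6692 and 6966 with DMSO, a rise of 0.39 ± 0.08 (1.31-fold, adjusted p = 0.000147). That call was lost when each array was centred on its median (0.18, adjusted p = 0.106), and the LMT arrays overlapped the DMSO arrays of the E9591 experiment (8799 to 9052). With E9591 ADH5 had 10010.3, 9843 and 9588, above the 8975, 8799 and 9052 of DMSO, a difference of 0.13 ± 0.08 that was not called (adjusted p = 0.176). It was called under quantile normalization (0.21, adjusted p = 0.0103), with array weights (0.13) and in that experiment alone (0.13), and was -0.03 and not called under median centring. With BIPR it was -0.03 ± 0.08 and with PHEN -0.01 ± 0.08.

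**Figure D3:**
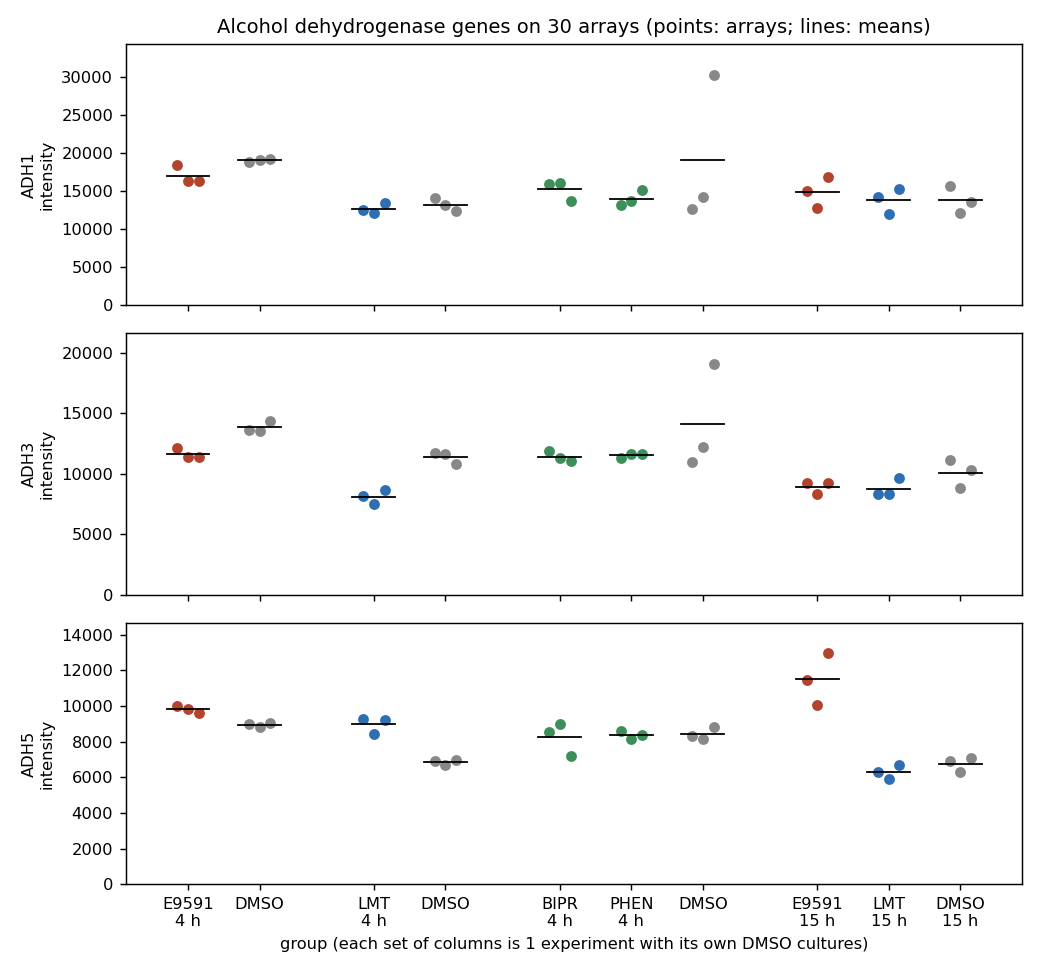
Intensity (linear axis from 0) of the alcohol dehydrogenase genes on the 30 arrays, by group; points are arrays and lines are group means. ADH5 is highest with E9591 at 15 h (10058 to 12976), ADH3 is low with LMT at 4 h (7548 to 8648), and replicate C of the chelators' DMSO cultures stands high for ADH1 (30276) and ADH3 (19081).

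The balance of isoforms was taken within each array as the log2 difference of a pair of genes, which cancels any factor common to the array. Only its change between groups can be read, since the level of 1 probe set has no fixed relation to that of another. With 3 arrays against 3, an exact two-sided permutation test cannot go below p = 0.1. Treated and DMSO arrays did not overlap in 16 of the 24 changes computed, each with an exact p of 0.1. No such share over other gene pairs is given here, so the count says nothing particular about these pairs.

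With E9591 at 15 h PDC5 over PDC1 had the largest shift of the 4 balances. The balance at 15 h was 0.01, -0.02 and -0.14 with E9591 and -3.27, -3.17 and -3.69 with LMT, against -4.68, -4.94 and -5.08 with DMSO. The shifts toward PDC5 were 4.85 with E9591 and 1.52 with LMT, both without overlap. At 4 h LMT shifted the balance by 0.99 without overlap, while the arrays overlapped with E9591 (0.04), BIPR (-0.22) and PHEN (-0.21). For the chelators the overlap came from DMSO replicate C, at -5.045 against -3.862 and -3.877 for A and B. Without that array the shifts were -0.609 with BIPR and -0.606 with PHEN, and neither chelator overlapped DMSO.

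PDC6 over PDC1 shifted toward PDC6 with each compound at 4 h and toward PDC1 with both at 15 h. The shifts at 4 h were 0.98 with E9591, 1.24 with LMT, 3.02 with BIPR and 3.27 with PHEN. Without DMSO replicate C the chelator shifts were 2.575 and 2.819. At 15 h they were -2.36 with E9591 and -1.47 with LMT. None of these 6 comparisons overlapped.

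Among the alcohol dehydrogenases the shifts were smaller. ADH3 over ADH1 was lower without overlap with LMT at 4 h (-0.43), with E9591 at 4 h (-0.08) and with both compounds at 15 h (-0.28 and -0.21). ADH5 over ADH1 was higher without overlap with E9591 at 4 h (0.30), LMT at 4 h (0.45) and E9591 at 15 h (0.65), and overlapped with LMT at 15 h (-0.11). Both balances overlapped for BIPR and PHEN, where DMSO replicate C lay apart. Without that array the shift of ADH5 over ADH1 was -0.17 with BIPR and -0.03 with PHEN, against 0.18 and 0.33 with it, and that of ADH3 over ADH1 was -0.20 and -0.06, against -0.05 and 0.09. The ADH3 shift with BIPR was 0.03 without DMSO replicate A and 0.03 without DMSO replicate B.

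**Figure D4:**
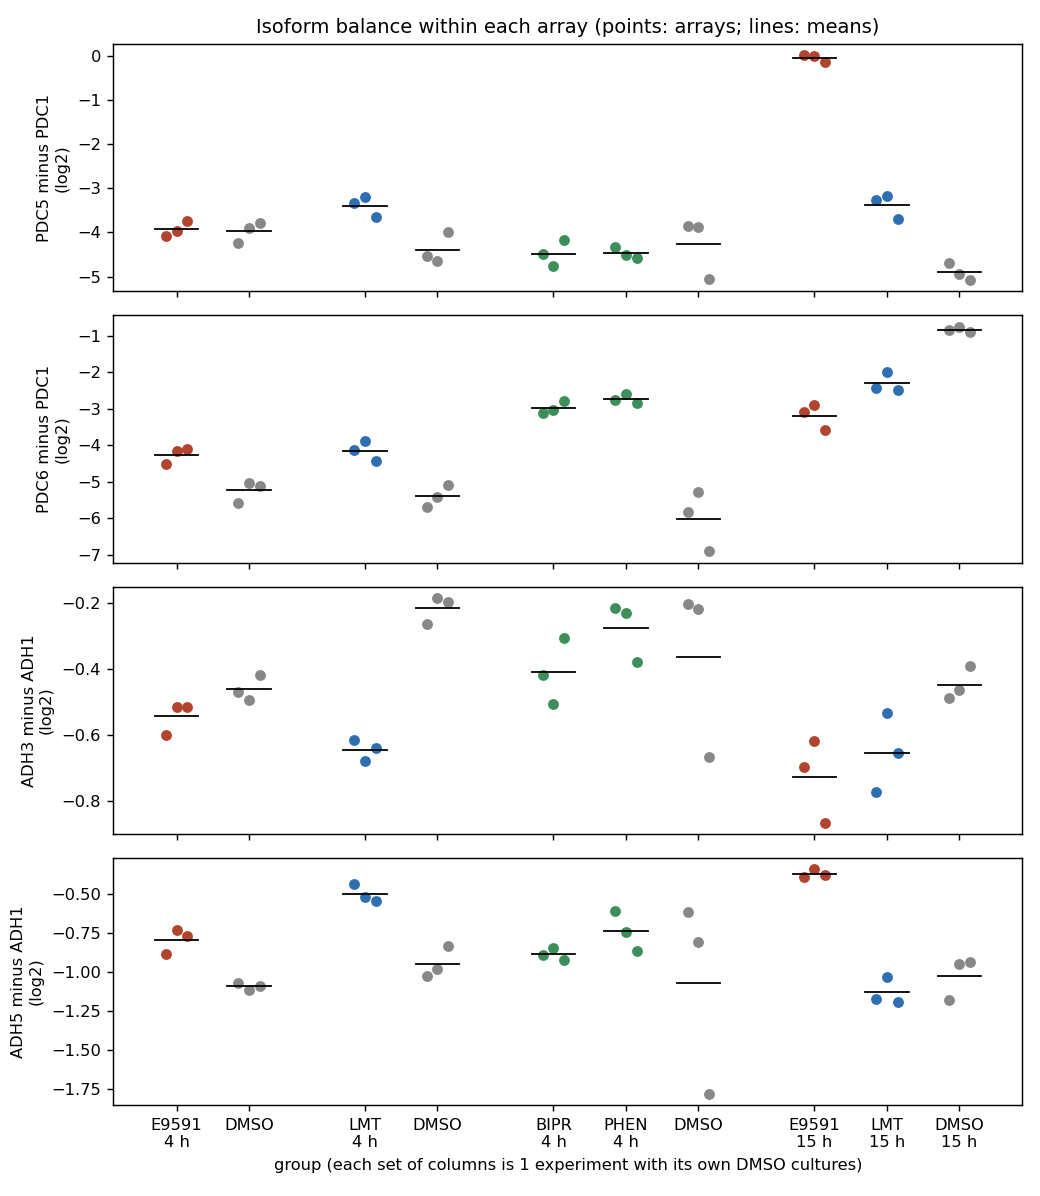
Log2 difference of paired isoform genes within each array, by group; points are arrays and lines are group means. The balance of PDC5 over PDC1 reaches -0.14 to 0.01 with E9591 at 15 h against -5.08 to -4.68 with DMSO, and that of PDC6 over PDC1 is raised with both chelators.

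The compounds were next set against each other. Between PHEN and BIPR none of the 6 genes was called, and 0 of 5429 genes (0.0%) were called between them by limma, with 286 at an unadjusted p under 0.05. The widest 95% interval among the 6 was that of ADH1, -0.52 to 0.27, and that of PDC6 was -0.19 to 0.47. At 4 h the effect of LMT exceeded that of E9591 for PDC5 by 1.05 ± 0.21 (adjusted p = 0.000491). It was the 1 member called, where 26.0% of genes were called, 12.4% higher and 13.5% lower. For PDC6 the excess of 0.37 ± 0.23 was not called (95% interval -0.09 to 0.84). Against the mean of both chelators, the PDC6 effect was smaller by 2.07 ± 0.21 with E9591 (adjusted p = 4.84e-08, 1 of 6 members called, against 28.9% of genes, 18.9% higher and 10.0% lower) and by 1.70 ± 0.21 with LMT (adjusted p = 4.18e-07, 3 of 6, against 50.8%, 29.6% higher and 21.2% lower). LMT also exceeded the chelators in PDC5 (1.41 ± 0.19) and ADH5 (0.41 ± 0.10), the second of which was lost under median centring (0.29, adjusted p = 0.0693). These effects come from different experiments, and variation between experiments is not in their errors.

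At 15 h, 3 of 6 genes differed between LMT and E9591 cultures of 1 experiment. Besides the lower PDC5 and ADH5 given above, PDC6 was higher with LMT (0.65 ± 0.16, 1.57-fold, adjusted p = 0.000724). PDC1 (-0.24 ± 0.18, 95% interval -0.62 to 0.14), ADH1 (-0.10 ± 0.19) and ADH3 (-0.03 ± 0.12) were not called, though PDC1 was under 2 of 13 alternatives.

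The effects at 15 h were also set against those at 4 h, each with its own DMSO. For E9591 the PDC5 effect grew by 5.22 ± 0.21 (adjusted p = 2.92e-17) and the ADH5 effect by 0.63 ± 0.11 (adjusted p = 1.55e-05), while the PDC6 effect changed sign and fell by 2.93 ± 0.23 on the log2 scale. That made 3 of 6 called, against 84.6% of genes, 39.7% higher and 44.9% lower. For LMT the PDC5 effect grew by 0.60 ± 0.21 (adjusted p = 0.0102), and the changes were -2.65 ± 0.23 for PDC6 and -0.49 ± 0.11 for ADH5. Again 3 of 6 were called, against 82.8% of genes, 38.1% higher and 44.7% lower. In the DMSO cultures themselves, 15 h against 4 h, PDC6 was higher and 4 genes were lower: PDC5 (-1.05 ± 0.12), PDC1 (-0.35 ± 0.15), ADH3 (-0.36 ± 0.10) and ADH5 (-0.25 ± 0.06), 5 of 6 called, against 90.9% of genes, 48.3% higher and 42.6% lower. The PDC1 call was lost without 15 h DMSO replicate B (-0.24).

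Over the 30 arrays the levels most like that of PDC1 were those of ADH1 (Pearson r = 0.961), the vacuolar ATPase subunit VMA3 (0.935) and the aldolase FBA1 (0.93). For ADH1 they were PDC1, the enolase ENO1 (0.938) and the phosphate transporter PHO84 (0.929). For ADH3 they were the vacuolar ATPase subunit VMA4 (0.909), SCS2 (0.907) and the cystathionine beta-synthase CYS4 (0.889). These arrays share groups and experiments, so r is a description only. PDC1, ADH1 and ADH3 are among the brightest probe sets, and their spread over arrays includes the high values of DMSO replicate C.

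For PDC5 the nearest genes were CHA1, the serine and threonine deaminase (0.934), ESC8 (0.924) and YAR066W (0.871). All 3 had their highest mean with E9591 at 15 h, as PDC5 did: CHA1 averaged 3002 there and 69.3 in the 15 h DMSO cultures. The genes named here for PDC5, PDC6 and ADH5 were picked by r over the same arrays. A peak shared with the member follows largely from that choice and is no separate result. For PDC6 they were the vacuolar protease PRB1 (0.958), the diadenosine phosphate phosphorylase APA2 (0.95) and the glutamate dehydrogenase GDH3 (0.939), each highest in the 15 h DMSO cultures. GDH3 averaged 4129.9 with PHEN and 3949.7 with BIPR, against 477 in their DMSO cultures. For ADH5 they were the argininosuccinate lyase ARG4 (0.903), the aspartate aminotransferase AAT2 (0.878) and ASK10 (0.866).

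Genes of neighbouring steps were described by counts and medians, to be read beside the shares of all genes called. At 15 h these shares were 45.7% higher and 42.2% lower with E9591, and 41.9% higher and 41.9% lower with LMT. Of 7 other alcohol dehydrogenase genes, 1 rose and 6 fell with E9591 at 15 h (median -1.78, against 0.05 over all genes), and 2 rose and 4 fell with LMT (median -0.51, against -0.01). ADH2 had 610.4, 554 and 649 with E9591 and 242, 240.6 and 248 with LMT, against 9061, 8712 and 11517 with DMSO, falls of -4.00 ± 0.12 and -5.31 ± 0.12. ADH4, a zinc-regulated isoenzyme, fell with E9591 (-2.91 ± 0.09) and rose with LMT (0.69 ± 0.09). ADH6, an NADPH-dependent dehydrogenase, rose with both (2.63 ± 0.05 and 1.43 ± 0.05). At 4 h ADH2 rose with all 4 compounds, by 2.22 with E9591, 2.73 with LMT, 1.02 with BIPR and 1.00 with PHEN (each ± 0.12).

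A list of 10 genes held aldehyde dehydrogenases, acetyl-CoA synthetases and the transporters ADY2, ATO2 and ATO3. Of these, 2 rose and 7 fell with E9591 at 15 h (median -3.33), where 42.2% of all genes were lower, and 2 rose and 8 fell with LMT (median -1.73), where 41.9% were lower. The mitochondrial aldehyde dehydrogenase ALD5 rose by 5.09 ± 0.07 with E9591 and 2.75 ± 0.07 with LMT, and ACS2, the acetyl-CoA synthetase used on glucose, by 0.92 ± 0.13 and 1.43 ± 0.13. The acetate transporter ADY2 fell most (-8.09 ± 0.31 and -5.96 ± 0.31). ALD5 had 12844, 11650 and 13199 with E9591 and 2587, 2528 and 2317 with LMT, against 332, 384 and 391 with DMSO, the same order as PDC5. Its level in the 4 h DMSO cultures was 2969 to 5389, above the 15 h DMSO level.

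Glycolytic genes upstream of pyruvate rose for 9 of 15 and fell for 4 with E9591 at 15 h (median 1.07), where 45.7% of all genes were higher, and rose for 10 and fell for 1 with LMT (median 1.05), where 41.9% were higher. The enolase ENO2 rose by 3.24 ± 0.17 and 3.27 ± 0.17. At 4 h 0 rose and 1 fell with E9591, 0 rose and 5 fell with LMT, and 1 rose and 2 fell with each chelator. The shares of all genes called were 43.3% with E9591, 65.5% with LMT, 46.2% with BIPR and 48.9% with PHEN. On the route of pyruvate into mitochondria and oxaloacetate, 10 of 13 genes fell and 2 rose with E9591 at 15 h and 9 fell and 1 rose with LMT. These 13 include the pyruvate dehydrogenase regulators PKP1, PKP2 and PTC5, so the count mixes enzymes, carriers and regulators. The pyruvate carrier subunit MPC3 fell (-4.46 ± 0.23 and -1.29 ± 0.23), and the pyruvate carboxylase PYC2 rose by 1.60 ± 0.06 and 1.19 ± 0.06. The other carboxylase gene, PYC1, averaged 10160 with E9591 and 9586 with LMT, against 17617 with DMSO. In the glycerol branch, 3 of 6 genes were higher and 3 lower under E9591, and 3 were higher and 2 lower under LMT. The phosphatase GPP2 rose (4.46 ± 0.07 and 3.36 ± 0.07) and the glycerol kinase GUT1 fell (-2.85 ± 0.09 and -2.73 ± 0.09). GPD1 fell with E9591 (-1.59 ± 0.09) and was not called with LMT (0.085 ± 0.093). GPD2 rose with both (1.62 ± 0.08 and 1.35 ± 0.08).

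**Figure D5:**
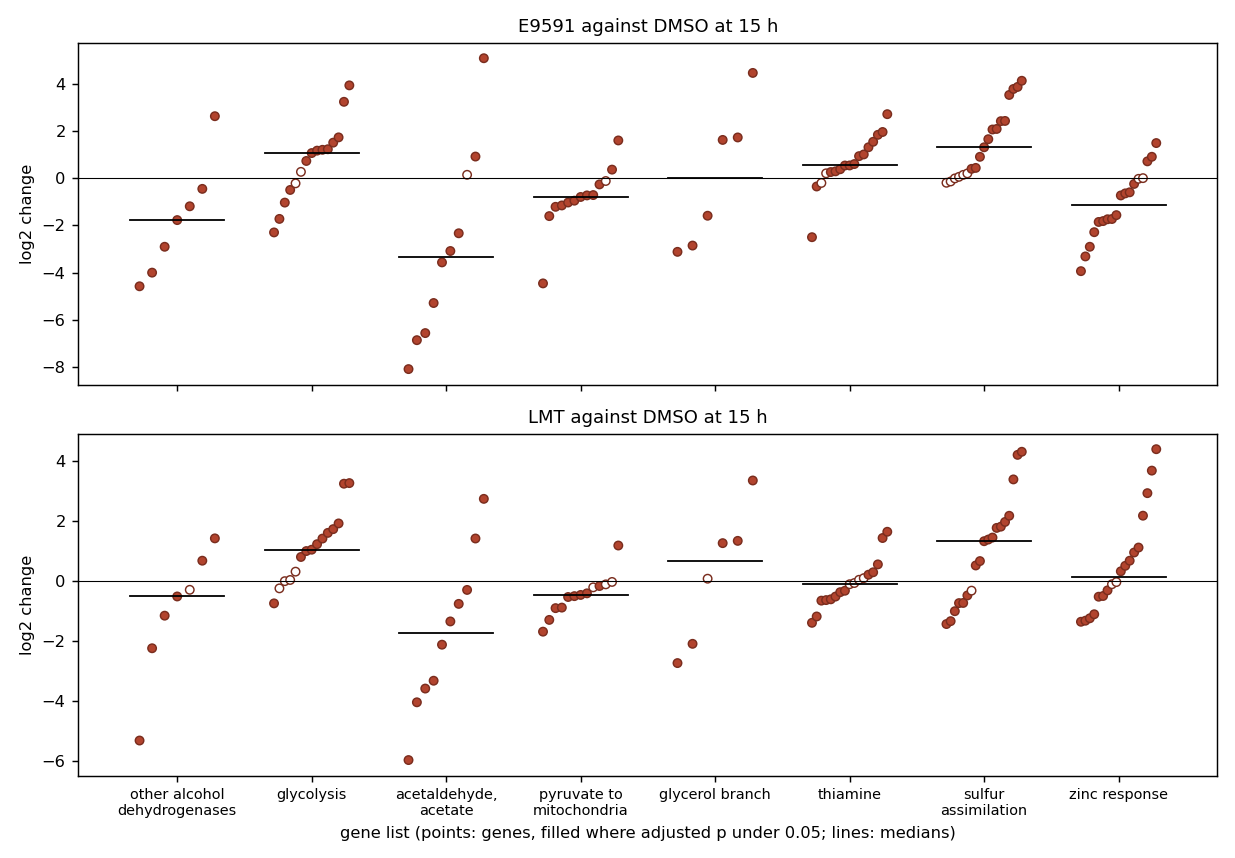
Log2 change against DMSO at 15 h of each tested gene in 8 gene lists, with E9591 above and LMT below; filled points had an adjusted p under 0.05, lines are list medians and genes within a list are sorted by value. The acetaldehyde and acetate list has medians of -3.33 and -1.73, the glycolysis list 1.07 and 1.05, and the thiamine list 0.54 and -0.10.

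Thiamine supplies the cofactor of the decarboxylases. Of 17 tested thiamine genes (22 listed), 13 rose and 1 fell with E9591 at 4 h, 14 rose and 2 fell with LMT, and 11 rose and 2 fell with each chelator. The medians were 0.50, 0.94, 0.34 and 0.39, against 0.09, 0.10, 0.04 and 0.05 over all genes. The shares of all genes called higher were 32.0%, 40.4%, 27.7% and 29.2%, and those called lower 11.3%, 25.2%, 18.5% and 19.7%, in the same order. At 15 h 13 rose and 2 fell with E9591 (median 0.54) and 5 rose and 8 fell with LMT (median -0.10). Between the compounds at 15 h, 15 of 17 were lower with LMT and 1 was higher, where 38.6% of all genes were lower and 39.5% higher. THI4, which makes the thiazole ring of thiamine, had 2587, 2757 and 3298 with E9591 and 702, 795 and 791 with LMT, against 857, 667 and 697 with DMSO. Its change was 1.96 ± 0.10 with E9591 and 0.05 ± 0.10 with LMT (adjusted p = 0.655). PDC2, the activator of PDC1, PDC5 and thiamine genes, was called higher with E9591 (0.29 ± 0.07, lost under quantile normalization at 0.13) and lower with LMT (-0.65 ± 0.07).

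Sulfur assimilation genes, whose regulon PDC6 is known to accompany in sulfur-starved cells, were mixed at 4 h. Of 19 genes, 2 rose and 4 fell with E9591, 2 rose and 11 fell with LMT, 4 rose and 6 fell with BIPR, and 6 rose and 6 fell with PHEN. Of all genes, 32.0% were higher and 11.3% lower with E9591, 40.4% and 25.2% with LMT, 27.7% and 18.5% with BIPR, and 29.2% and 19.7% with PHEN. The sulfonate dioxygenase JLP1 rose with E9591 (1.39 ± 0.22) and LMT (2.00 ± 0.22), while with BIPR and PHEN the sulfatase BDS1 rose (0.64 ± 0.08 and 0.81 ± 0.08) and the sulfite reductase subunit MET5 fell (-1.13 ± 0.11 and -1.15 ± 0.11). At 15 h 13 rose and 0 fell with E9591 (median 1.31) and 12 rose and 6 fell with LMT (median 1.34), with PDC6 lower in both. MET3, the ATP sulfurylase, rose by 3.87 ± 0.09 and 4.32 ± 0.09.

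Of 18 targets of the zinc regulator Zap1, 3 rose and 13 fell with E9591 at 15 h (median -1.15), and 9 rose and 7 fell with LMT (median 0.15). Of all genes, 87.9% were called with E9591 and 83.8% with LMT. Between the compounds, 16 were higher and 1 was lower with LMT, where 39.5% of all genes were higher and 38.6% lower. ZAP1 itself fell with E9591 (-3.94 ± 0.12) and with LMT (-1.35 ± 0.12). At 4 h 4 rose and 3 fell with E9591, 5 rose and 8 fell with LMT, 6 rose and 6 fell with BIPR, and 7 rose and 7 fell with PHEN. Of all genes at 4 h, 32.0% were higher and 11.3% lower with E9591, and 40.4% and 25.2% with LMT. The shares were 27.7% and 18.5% with BIPR, and 29.2% and 19.7% with PHEN.

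Among 13 regulators of these genes, 5 rose and 7 fell with E9591 at 15 h and 4 rose and 8 fell with LMT. The 12 called of 13 with each compound stand beside 87.9% and 83.8% of all genes, so the count says nothing particular about the list. TYE7, an activator of glycolytic genes, rose by 1.71 ± 0.07 and 2.19 ± 0.07, and CAT8, an activator of glucose-repressed genes, fell (-4.70 ± 0.11 and -2.89 ± 0.11). At 4 h ADR1, the activator of ADH2, rose with E9591 (1.72 ± 0.24) and LMT (2.96 ± 0.24). In the LMT experiment it had 235, 229 and 188 with LMT, against 26.8, 28.2 and 25.8 with DMSO. The background values of those DMSO arrays were 13.2, 13.4 and 15.7, so the DMSO values were low but above them. In the Ehrlich pathway, which makes alcohols from amino acids, 3 of 7 genes rose and 3 fell with each compound at 15 h. The decarboxylase ARO10 fell with E9591 (-4.94 ± 0.19) and with LMT (-4.42 ± 0.19), while BAT1 rose (4.65 ± 0.10 and 3.56 ± 0.10).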

How the data were processed

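The deposited table gives each of 10928 probe sets 1 linear intensity per array on 30 single-colour arrays. Each array's 2% trimmed mean lay between 1000.4 and 1000.8, so the deposited intensities are scaled to a common mean. The sources used here name no summary software, background correction or genome build. Per the labels' protocols, biotin-labelled cRNA from total RNA was hybridised, 1 array per biological replicate culture, and the p-values rest on the spread of those cultures. A platform annotation paired 5498 probe sets with exactly 1 gene. No 2 arrays were identical.

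Values were taken as log2(intensity + 1) and fitted with limma 3.58.1 (R 4.3.3) with a mean for each of 10 groups (20 residual degrees of freedom, prior 3.16). Moderated p-values were adjusted by Benjamini-Hochberg over 5429 genes, which lay above background on at least 3 arrays; 20 genes did not. Differences of effects used the same fit. Isoform balances used exact permutation tests (scipy 1.17.1). The fit was tested on simulated data. Precision is limited by having 3 arrays in a group.

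The members and gene lists were chosen with earlier results of these data known. Named genes are the members, up to 3 called genes at either end of each list, list genes needed to explain a count, and the 3 genes with the highest Pearson r for each member. Probe sets of the shared type can read related genes, and no member has one. Cultures were not paired by replicate letter in the main fit. Of 24 same-letter pairs, 7 correlated above 0.1 in their deviations (-0.09 to 0.33), the highest being E9591 with LMT at 15 h. Different-letter pairs were not compared, so a shared effect of the letter was not tested. At 15 h replicate B was the lowest of its group for PDC1, ADH1, ADH3 and ADH5 with DMSO, E9591 and LMT. Alternatives were quantile normalization, median centring, a pseudocount of 16, no filter, array weights, a replicate block, each experiment alone, and leaving out each array.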

Additional observations from a re-analysis of the deposited data

Results flagged for a closer look

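The results listed here are differences of effect between treatments or times that passed the test of the difference itself (limma, adjusted p under 0.05), as log2 values. Groups of 3 arrays were not tested for single outlying arrays.

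Between LMT and E9591 cultures at 15 h, PDC5 differed by -3.57, PDC6 by 0.65 and ADH5 by -0.86. At 4 h the effect of LMT on PDC5 exceeded that of E9591 by 1.05, with DMSO cultures of the LMT experiment that were lower in PDC5 (620.4 to 906) than those of the E9591 experiment (1075 to 1490).

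Against the mean chelator effect at 4 h, the effect of E9591 on PDC6 differed by -2.07. The effect of LMT differed by 1.41 for PDC5, -1.70 for PDC6 and 0.41 for ADH5.

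For E9591 the effect at 15 h minus that at 4 h was 5.22 for PDC5, -2.93 for PDC6 and 0.63 for ADH5. For LMT it was 0.60 for PDC5, -2.65 for PDC6 and -0.49 for ADH5. Both 15 h effects are set against DMSO cultures in which PDC6 was 20.5-fold higher than in the 4 h DMSO groups, and time and experiment cannot be told apart there.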

How the results depend on the processing

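No called change of the 6 genes changed sign under any alternative tried. Counts of members called moved by over 1.5 times as follows. With E9591 at 4 h the count of 1 became 2 under quantile normalization and median centring, and 3 with array weights or with that experiment alone. With BIPR and PHEN the count of 2 became 1 with array weights; leaving out single arrays gave 1 to 3 for BIPR and 2 to 5 for PHEN, with the 3 and the 5 without DMSO replicate A and the 1 without BIPR replicate B. Under quantile normalization the count was 6 with E9591 and 4 with LMT at 15 h, 3 for LMT minus E9591 at 4 h and 5 for LMT at 15 h minus 4 h. With array weights it was 3 for LMT minus E9591 at 4 h and 5 for E9591 at 15 h minus 4 h. Quantile normalization moved the balance of PDC5 over PDC1 to -0.27 (E9591, 4 h), 4.67 (E9591, 15 h) and 1.11 (LMT, 15 h), that of PDC6 over PDC1 to 0.62 and 0.90 (E9591 and LMT, 4 h) and -2.62 and -1.73 (15 h), and that of ADH5 over ADH1 to 0.19 (E9591, 4 h) and -0.25 (LMT, 15 h). The cause was not tested. A replicate block left the counts at 1 and 4 with E9591 and LMT at 4 h, 2 with each chelator, and 3 and 2 with E9591 and LMT at 15 h, and changed no call. Over all genes, the share of calls that were higher at 4 h was 73.9% with E9591 (42.7% under quantile normalization, 39.7% under median centring), 61.6% with LMT (45.5% and 41.2%), 59.9% with BIPR (47.1% and 46.5%) and 59.7% with PHEN (46.4% and 42.3%); centring moved the median of all genes by -0.16 with E9591 and -0.20 with LMT. With array weights, 2158 genes in place of 1409 were called for LMT minus E9591 at 4 h and 21 in place of 0 between the chelators, and 4 without PHEN replicate A. Each member had 1 probe set, so the alternative of another probe set gave no value. All members lay above background on all arrays. PDC1 and ADH1 are among the brightest probe sets, and PDC5 reached their level with E9591 at 15 h (14844 to 18038). The effect of the upper end of the scale on these 3 genes, and on the balance of PDC5 over PDC1, was not tested.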
